A study of Mus musculus with 40 samples.

Results

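The small RNA of the hypothalamus was compared with that of the liver in total RNA that had not been pulled down, which the labels call input. This comparison rested on 10 of the 40 small RNA libraries of the series, 5 hypothalamus inputs and 5 liver inputs, each listed as 1 mouse. All mice were males aged 8 to 12 weeks on a standard chow diet. By the breeding scheme given for the series, a Ucp1-Cre driver line, Tg(Ucp1-cre)1Evdr/J, was crossed with a line carrying a Cre-dependent uracil phosphoribosyltransferase, Tg(CAG-GFP,-Uprt)985Cdoe/J, an enzyme that lets cells build 4-thiouracil into new RNA. In this cross the enzyme is meant for Ucp1-expressing cells such as brown adipocytes. All mice received 4-thiouracil at 50 mg/kg into the peritoneum, 4 times at 48 h intervals. By that scheme both groups of inputs share the cross and the 4-thiouracil. The labels give no genotype per mouse, and no group without 4-thiouracil or without Cre was analysed here. The matching pulled-down RNA of the same mice, called IP, was used here only as a second set of hypothalamus and liver libraries.

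MicroRNAs (miRNAs) are RNAs of about the length shown here that guide Argonaute proteins to messenger RNAs, largely through pairing of their seed, bases 2 to 8. Each is cut from a hairpin that can yield a 5p and a 3p arm, and hairpins often lie in clusters or in introns of host genes. Tissues differ strongly in their miRNAs: miR-122 is the classical hepatocyte miRNA, miR-9 and miR-124 mark neural cells, and a large imprinted group on the maternal Dlk1-Dio3 domain is known for its activity in brain. In whole tissue, more cells of a type and more of a miRNA per cell cannot be told apart.

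The 26 mature miRNAs shown here are those on which the tissue differences and the comparisons among seed relatives turn. Sequences are from RefSeq (GRCm38.p6), 5′ to 3′, with the seed in capitals. The first set lists miRNAs that were higher in the hypothalamus than in the liver.
miR-9-5p: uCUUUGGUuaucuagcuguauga
miR-7a-5p: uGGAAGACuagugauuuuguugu
miR-7b-5p: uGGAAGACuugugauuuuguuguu
miR-127-3p: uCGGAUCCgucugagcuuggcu
miR-128-3p: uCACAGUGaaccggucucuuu
miR-138-5p: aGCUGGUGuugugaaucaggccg
The next set lists miRNAs that were lower in the hypothalamus than in the liver.
miR-192-5p: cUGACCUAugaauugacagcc
miR-194-5p: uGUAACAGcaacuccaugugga
miR-21a-5p: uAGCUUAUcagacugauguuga
The last set puts relatives together, because the share of a member among its relatives differed between the tissues.
miR-92b-3p: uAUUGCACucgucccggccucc
miR-92a-3p: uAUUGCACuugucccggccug
miR-25-3p: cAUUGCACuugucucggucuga
miR-708-5p: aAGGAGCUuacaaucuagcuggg
miR-28a-5p: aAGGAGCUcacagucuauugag
miR-301a-3p: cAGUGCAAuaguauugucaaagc
miR-130a-3p: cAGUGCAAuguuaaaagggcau
miR-384-5p: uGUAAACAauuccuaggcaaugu
miR-30a-5p: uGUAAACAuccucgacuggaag
miR-30c-5p: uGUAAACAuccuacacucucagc
miR-30e-5p: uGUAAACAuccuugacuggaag
miR-101a-3p: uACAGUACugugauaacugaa
miR-101b-3p: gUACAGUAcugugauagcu
miR-148a-3p: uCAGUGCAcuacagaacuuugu
miR-152-3p: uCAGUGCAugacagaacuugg
miR-10a-5p: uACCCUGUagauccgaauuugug
miR-10b-5p: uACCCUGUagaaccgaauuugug

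The hairpins of these miRNAs lie at separate loci, many of them inside host genes of the build mm10 (GRCm38). miR-9-5p comes from 3 hairpins, at chr3:88215598-88215686 in an intron of Gm3764, at chr7:79505264-79505353 in an intron of Mir9-3hg and at chr13:83738814-83738885 in an exon of C130071C03Rik, all long noncoding RNA genes. miR-7a-5p comes from an intron of Hnrnpk (chr13:58392779-58392886) and from an intergenic hairpin (chr7:78888277-78888373), and miR-7b-5p from chr17:56242988-56243098, also intergenic. miR-127-3p lies opposite an exon of Rtl1, the imprinted retrotransposon-like gene, at chr12:109592846-109592915. The hairpins of miR-128-3p lie in introns of R3hdm1 (chr1:128202361-128202430) and Arpp21 (chr9:112118636-112118711), and that of miR-301a-3p in an intron of Ska2 (chr11:87113004-87113089). miR-708-5p lies in an intron of Tenm4 (mature sequence at chr7:96249450-96249472), and its relative miR-28a-5p in an intron of Lpp (chr16:24827868-24827889). miR-92a-3p is cut from an exon of Mir17hg (chr14:115044427-115044506) and from a second, intergenic hairpin on chromosome X, whereas miR-92b-3p has its own intergenic hairpin (chr3:89227116-89227198). Of the liver-enriched miRNAs, miR-192-5p (chr19:6264844-6264932) and one hairpin of miR-194-5p (chr19:6264643-6264728) are neighbours, miR-21a-5p overlaps an exon of Vmp1 (chr11:86584067-86584158), miR-101b-3p lies in an intron of Rcl1 (chr19:29135279-29135375), and miR-148a-3p is intergenic (chr6:51269812-51269910).

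The deposited table held 1894 miRNA entries. The hypothalamus inputs had totals of 153036 to 5562487 counts and the liver inputs of 675738 to 1129986 counts. Levels are counts per 1000000 miRNA counts of a library (CPM). The correlation of log CPM between libraries was 0.833 to 0.986 among the hypothalamus inputs, 0.971 to 0.985 among the liver inputs and 0.467 to 0.699 across the tissues, as a description of these 10 libraries.

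Hypothalamus inputs 4 and 5 stood apart from hypothalamus inputs 1, 2 and 3. Among 234 entries with at least 100 CPM in the hypothalamus, input 4, which also had the lowest total count, lay over 4-fold above the median of inputs 1 to 3 for 21 entries and over 4-fold below it for 9. In input 5 these counts were 11 and 3. Of the raised entries, 9 were shared by inputs 4 and 5: miR-375-3p, a miRNA of neuroendocrine and islet cells, the epithelial miR-200a-3p, miR-200b-3p, miR-200c-3p and miR-429-3p, the sensory and epithelial miR-182-5p and miR-183-5p, miR-152-3p and miR-3535. miR-375-3p had 388.2, 349.1, 383.7, 17730 and 38130 CPM in the 5 hypothalamus inputs. In the IP libraries of the same mice it had 228.6, 94.56, 132.1, 372.3 and 96610 CPM, so the mouse of input 5 was high in both libraries and the mouse of input 4 in its input only.

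Input 4 was also high in striated muscle miRNAs and in miR-122-5p. The muscle miRNA miR-1a-3p had 179000 CPM in hypothalamus input 4 and 1468 to 2475 CPM in the other hypothalamus inputs, and the IP library of the same mouse had 3012 CPM. For miR-133a-3p, another muscle miRNA, the level was 8646 CPM in input 4 against at most 97.17 CPM in the others. miR-122-5p had 17080 CPM in input 4, against 102.6 to 323.1 CPM in the other hypothalamus inputs. The summed neuronal list was lower in these libraries, with 219700, 205900, 219600, 57470 and 78580 CPM in hypothalamus inputs 1 to 5. The part of these differences in the tissue comparison was measured by leaving input 4 out and by using hypothalamus inputs 1 to 3 alone, and the values are given where they change a result.

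**Figure D1:**
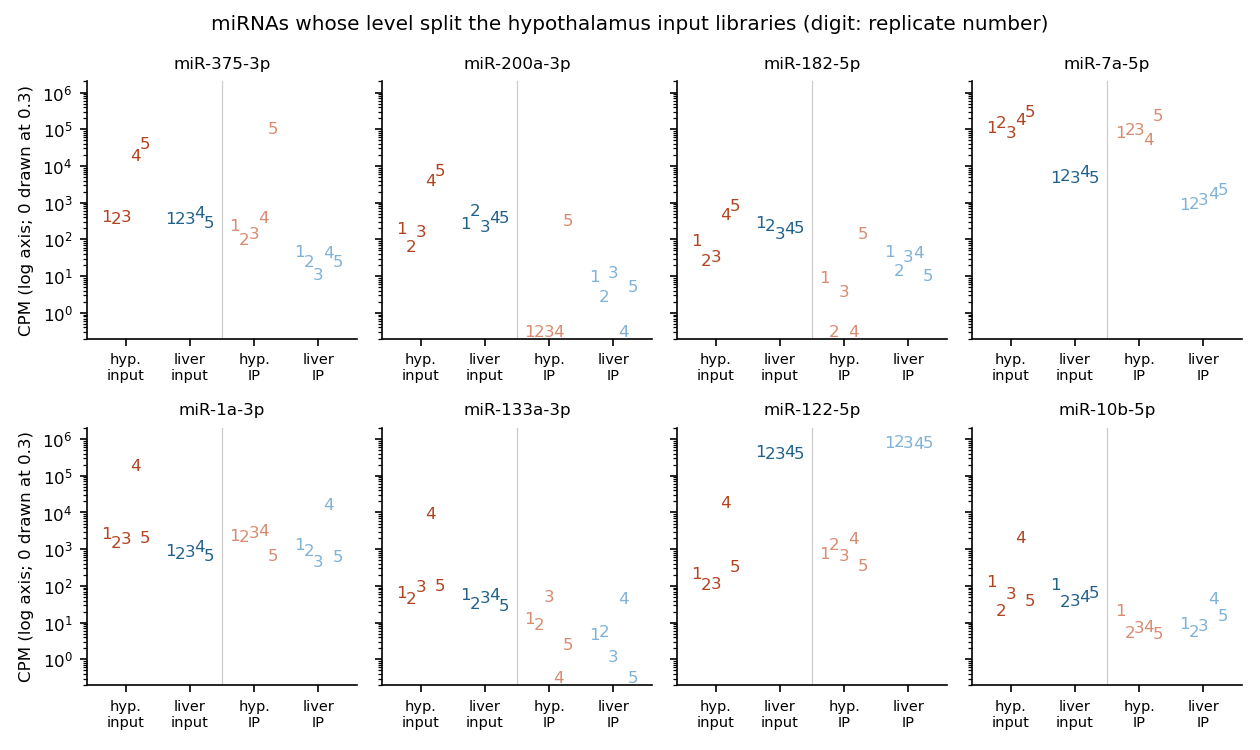
Levels of miRNAs that set hypothalamus inputs 4 and 5 apart, in CPM on a log axis, for each hypothalamus input, the IP library of the same mouse, and the liver inputs and IPs. Each digit is 1 library and gives its replicate number, and a level of 0 is drawn at the foot. miR-375-3p reaches 17730 and 38130 CPM in hypothalamus inputs 4 and 5, and miR-1a-3p reaches 179000 CPM in input 4 alone.

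Few miRNAs filled the liver libraries. miR-122-5p took 37.2% to 43.3% of the counts of each liver input and was the most abundant miRNA in all 5. In the hypothalamus the most abundant miRNA was miR-9-5p in inputs 1 and 3 (13.2% and 11.3%), miR-7a-5p in inputs 2 and 5 (14.1% and 29.3%) and miR-1a-3p in input 4 (17.9%). Together miR-122-5p, miR-21a-5p, miR-192-5p and miR-148a-3p took 2.36% to 7.49% of the hypothalamus inputs and 71.39% to 80.81% of the liver inputs. All miRNAs outside a library's top 10 shared 31.43% to 49.27% of the counts in the hypothalamus and 10.87% to 17.17% in the liver.

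This difference in composition sets how a fold change is read. Fold changes are log2 values of hypothalamus over liver from edgeR's quasi-likelihood test, with Benjamini-Hochberg adjusted p-values over the 394 entries tested, with libraries scaled by edgeR's trimmed mean method (TMM). Scaling by total count, which compares shares of a library, raised the fold changes by a median of 2.09 (log2), with a range over entries of 0.46 to 2.25. On the TMM scale, 184 of 394 entries (46.7%) were higher in the hypothalamus, 135 (34.3%) were lower and 75 were not called at an adjusted p of 0.05. On the total count scale 280 (71.1%) were higher and 48 (12.2%) lower. The counts called in lists, families and clusters given below are to be read beside these shares. All 184 entries higher by TMM were also higher by total count. Of the 135 lower by TMM, 48 were lower by total count as well, 54 were not called and 33 were called higher. The direction of an entry with a modest TMM fold change can therefore depend on the scale.

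In CPM, 281 of the 394 entries (71.3%) did not overlap between the groups, among them all 184 higher entries and 44 of the 135 lower ones. By TMM, 178 entries were at least 2-fold higher and 121 at least 2-fold lower, and the median log2 fold change of all entries was 0.65. Leaving out hypothalamus input 4 kept all 184 higher calls and 122 of the 135 lower calls and added 15 calls. With hypothalamus inputs 1 to 3 alone, a choice made after seeing the data, 184 higher and 123 lower calls were kept and 36 were added. The p-values measure the spread between these mice.

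**Figure D2:**
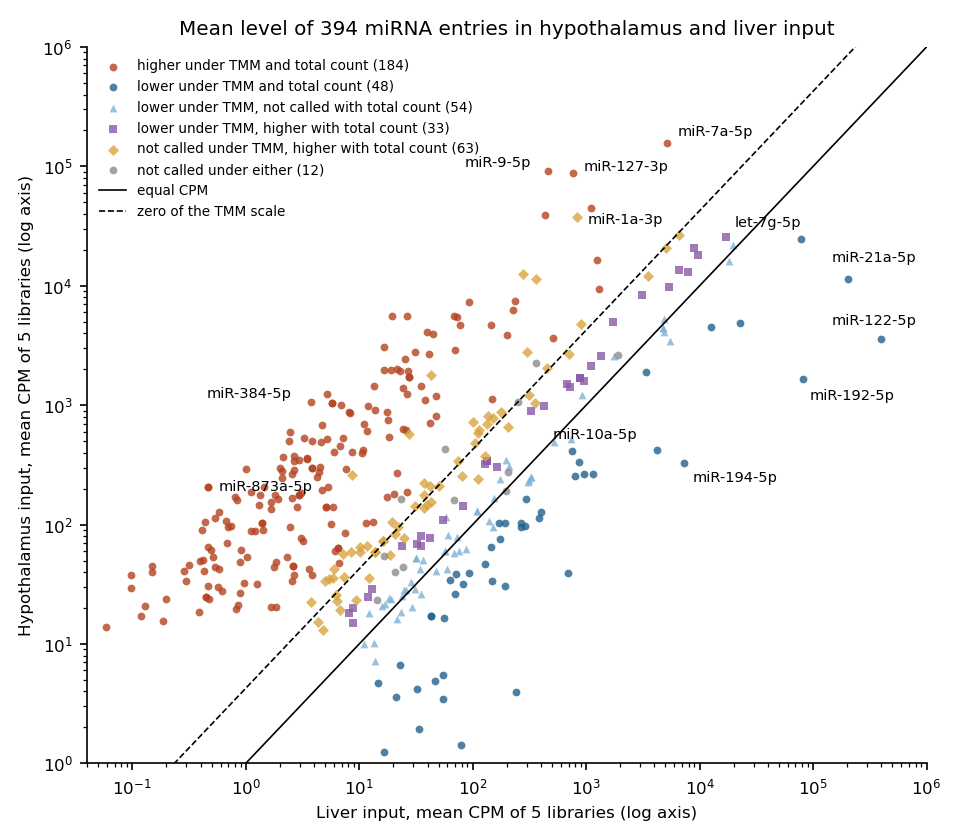
Mean level of each tested miRNA in the 5 hypothalamus inputs against its mean in the 5 liver inputs, in CPM on log axes. Each point is 1 of 394 entries, coloured by its calls on the TMM and total count scales (184 higher on both), with a solid line of equal CPM and a dashed line at the zero of the TMM scale. miR-122-5p and miR-9-5p lie far on opposite sides of both lines.

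Neuronal miRNAs were higher in the hypothalamus almost without exception. Of 34 entries on a list of neuron-enriched miRNAs, 24 passed the filter on low counts; 23 of them were higher, none was lower, and miR-592-5p was not called. Their median log2 fold change was 4.56, beside 0.65 over all entries tested, and all 24 were higher on the total count scale. Several of them, such as miR-153-5p and miR-138-5p, were so scarce in the liver that they could pass the filter only through the hypothalamus. The direction of such entries is no separate result. miR-9-5p, which acts in neural progenitors and neurons, had 132100, 132900, 113000, 29930 and 45340 CPM in the hypothalamus inputs, against 397, 450.7, 435.7, 650.7 and 351.9 CPM in the liver inputs. Its lowest hypothalamus value was far above its highest liver value, and its log2 fold change was 5.46 (SE 0.38, adjusted p = 4.08e-08).

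miR-124-3p, a neuron-restricted miRNA that promotes neuronal differentiation, was counted less often than miR-9-5p in these libraries. It had 4738, 5068, 14380, 2472 and 1534 CPM in the hypothalamus inputs and 14.46, 22.27, 18.99, 25.53 and 16.19 CPM in the liver inputs. Input 3 was the highest of the hypothalamus libraries and the groups did not overlap. The log2 fold change was 5.93 (SE 0.46, adjusted p = 1.09e-07). miR-128-3p, a regulator of neuronal excitability, had 60070, 45320, 56530, 15560 and 18950 CPM in the hypothalamus inputs, against 355.7, 390.3, 414.9, 588.5 and 421.9 CPM in the liver inputs. Its log2 fold change was 4.33 (SE 0.31, adjusted p = 4.54e-08).

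Scarcer neuronal miRNAs were higher as well. miR-138-5p, known for limiting the size of dendritic spines, had 483.1, 577.9, 1529, 184.8 and 231.5 CPM in the hypothalamus inputs and 2.372, 3.832, 1.637, 3.078 and 1.279 CPM in the liver inputs. No library of one group came near the other, and the log2 fold change was 5.73 (SE 0.52, adjusted p = 4.06e-07). miR-384-5p, a brain-enriched relative of the miR-30 family, had 938, 1426, 2157, 356.1 and 393.1 CPM in the hypothalamus inputs, against 3.92, 3.982, 2.451, 5.919 and 2.368 CPM in the liver inputs. This difference was 6.02 on the log2 scale (SE 0.47, adjusted p = 9.34e-08). For the whole list, hypothalamus inputs 4 and 5 had the lowest sums, and even these were above the 933.5 to 1619 CPM of the liver inputs.

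The miR-7 family supplied the most abundant miRNA of hypothalamus inputs 2 and 5. miR-7a-5p is known from hypothalamic neurons and pituitary and islet endocrine cells and as the main partner of the circular RNA Cdr1as. It had 102000, 141200, 75610, 177700 and 293200 CPM in the hypothalamus inputs, against 4580, 5326, 4591, 6681 and 4565 CPM in the liver inputs. Inputs 4 and 5 were the highest, the reverse of their place for miR-9-5p, and the log2 fold change was 3.04 (SE 0.46, adjusted p = 4.02e-05). miR-7b-5p, which differs from it outside the seed, had 23400, 32380, 18430, 54700 and 96610 CPM in the hypothalamus inputs and 991.1, 1074, 992.2, 1593 and 835.1 CPM in the liver inputs. Here the log2 fold change was 3.50 (SE 0.57, adjusted p = 0.000102). Family members with this seed summed to 125400, 173500, 94040, 232400 and 389900 CPM in the hypothalamus and to between 5400 and 8274 CPM in the liver.

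The neuroendocrine list held 7 entries, of which 4 passed the filter and 3 were higher, with a median log2 fold change of 3.36 beside 0.65 over all entries. miR-375-3p was the member not called (3.24, adjusted p = 0.0716). In hypothalamus inputs 1 to 3 alone its log2 fold change was -1.996 (adjusted p = 1.25e-07), with levels of 349.1 to 388.2 CPM in those libraries and 265.2 to 512.8 CPM in the liver. The direction of miR-375-3p therefore rested on hypothalamus inputs 4 and 5.

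Oligodendrocyte miRNAs were higher as well. All 5 entries of this list that passed the filter, of 9 listed, were higher on both scales, with a median log2 fold change of 4.04 beside 0.65 over all entries. Entries as scarce in the liver as these could pass the filter almost only through the hypothalamus. Their direction was therefore largely set by the filter and is no separate result. miR-219a-2-3p, from a hairpin needed for oligodendrocyte maturation and myelin, had 1942, 1227, 1117, 385.6 and 502.3 CPM in the hypothalamus inputs and 6.86, 6.195, 3.431, 7.399 and 4.736 CPM in the liver inputs. Its log2 fold change was 5.32 (SE 0.40, adjusted p = 7.57e-08), and miR-219b-5p, from the opposite strand, carried nearly the same counts and cannot be told apart from it here. miR-338-3p, which acts beside miR-219 in these cells, had 234.2, 199.4, 878.3, 86.58 and 76.9 CPM in the hypothalamus inputs, against 1.715, 4.974, 1.47, 9.619 and 1.48 CPM in the liver inputs. Input 3 was the highest, and the log2 fold change was 4.04 (SE 0.65, adjusted p = 7.7e-05). miR-3065-5p, from the opposite strand, had the same counts, so these values cannot be assigned to one of them. The list summed to 4531, 2906, 3480, 975.6 and 1190 CPM in the hypothalamus and to 18.62 to 37.17 CPM in the liver.

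The Dlk1-Dio3 miRNAs, expressed from the maternal chromosome only, formed the longest list, and nearly all of those tested were higher. Of 112 listed entries, 66 passed the filter; 65 were higher in the hypothalamus, none was lower, and miR-376b-3p was not called. Their median log2 fold change was 4.29, beside 0.65 over all entries, and the list summed to 169500, 211800, 168300, 78000 and 147100 CPM in the hypothalamus inputs, against 1770 to 2259 CPM in the liver inputs. Many of these entries, such as miR-770-3p, miR-380-3p and miR-412-5p, were so scarce in the liver that they could pass the filter only through the hypothalamus. The direction of such entries is no separate result. miR-127-3p, which targets the Rtl1 transcript opposite it, had 97720, 127200, 87530, 39650 and 88620 CPM in the hypothalamus inputs and 604.4, 720.7, 720.9, 981.3 and 789.7 CPM in the liver inputs. Its level made up more than any other member's of the list, and its log2 fold change was 4.76 (SE 0.29, adjusted p = 2.19e-08).

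Other members of the domain spanned a wide range of levels. miR-300-3p had 7857, 10090, 9172, 4112 and 5692 CPM in the hypothalamus inputs, against 84.36, 100.9, 81.36, 108.4 and 84.96 CPM in the liver inputs, a log2 difference of 4.21 (SE 0.21). miR-434-5p, another miRNA antisense to Rtl1, averaged 5634 CPM in the hypothalamus and 67.88 CPM in the liver (4.27). For miR-379-5p, the first hairpin of the long cluster, the means were 7440 and 237.4 CPM in hypothalamus and liver (2.88). Among the scarce members, miR-770-3p had 1611, 2137, 1529, 372.9 and 605.5 CPM in the hypothalamus and 2.45, 4.867, 5.224, 8.879 and 4.736 CPM in the liver (5.79), and miR-380-3p averaged 504.4 and 2.388 CPM in hypothalamus and liver (5.61). None of the members given here overlapped between the tissues.

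Entries close to absent from the liver set the upper end of the range. Once the fractional deposited values were rounded, 12 of the 394 entries tested had no count in any liver input. Another 30 had 1 to 3 counts over all 5 liver inputs. These 42 were all called higher, but entries so scarce in the liver could pass the filter only through their hypothalamus counts. Their direction was therefore set by the filter and is no separate result. Some of them, such as miR-153-5p and miR-667-5p, are on the neuronal and Dlk1-Dio3 lists. miR-873a-5p had 215, 365.5, 280.8, 71.22 and 98.89 CPM in the hypothalamus inputs and at most 0.8626 CPM in any liver input. For miR-760-3p there were 2308 rounded counts in the hypothalamus inputs and 3 in the liver inputs, a ratio of 93.0 on the TMM scale and of 381 on the total count scale (95% counting intervals 31.8 to 452 and 130 to 1850). miR-1224-5p had 857 rounded counts in the hypothalamus and 1 in the liver, a TMM ratio of 104 (18.6 to 4098). miR-653-5p had 790 rounded counts in the hypothalamus and none in the liver, where its unrounded level was at most 0.7399 CPM in any library. The intervals cover counting error only, since the reads carry no molecular identifiers.

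Families shared with other tissues, but richer in brain, were also higher. Of the miR-34 and miR-449 family, known from brain, testis and ciliated cells, 4 entries passed the filter and 3 were higher, beside 46.7% higher over all entries. miR-34c-5p had 6359, 7035, 6711, 2669 and 4489 CPM in the hypothalamus inputs, against 64.19, 107.3, 57.83, 90.27 and 41.74 CPM in the liver inputs (log2 fold change 4.11, SE 0.30, adjusted p = 5.35e-08). Its cluster partner miR-34b-5p averaged 405.8 and 6.043 CPM in hypothalamus and liver (3.98). All 7 tested entries of the miR-181 family, which acts in neurons and in lymphocytes, were higher, beside the same 46.7% over all entries. The log2 fold changes were 2.65 for miR-181a-5p, 3.40 for miR-181b-5p and 3.52 for miR-181d-5p. miR-125b-5p, of the family of the worm miRNA lin-4 and active in neural differentiation, had 22410, 14630, 31160, 5944 and 7414 CPM in the hypothalamus and 1045, 1366, 719.4, 2073 and 1048 CPM in the liver. Its groups did not overlap, its log2 fold change was 1.54 (SE 0.31, adjusted p = 0.000499), and 6 of the 10 tested entries of the miR-125, miR-99 and miR-100 group were higher and none lower, beside 46.7% higher over all entries.

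**Figure D3:**
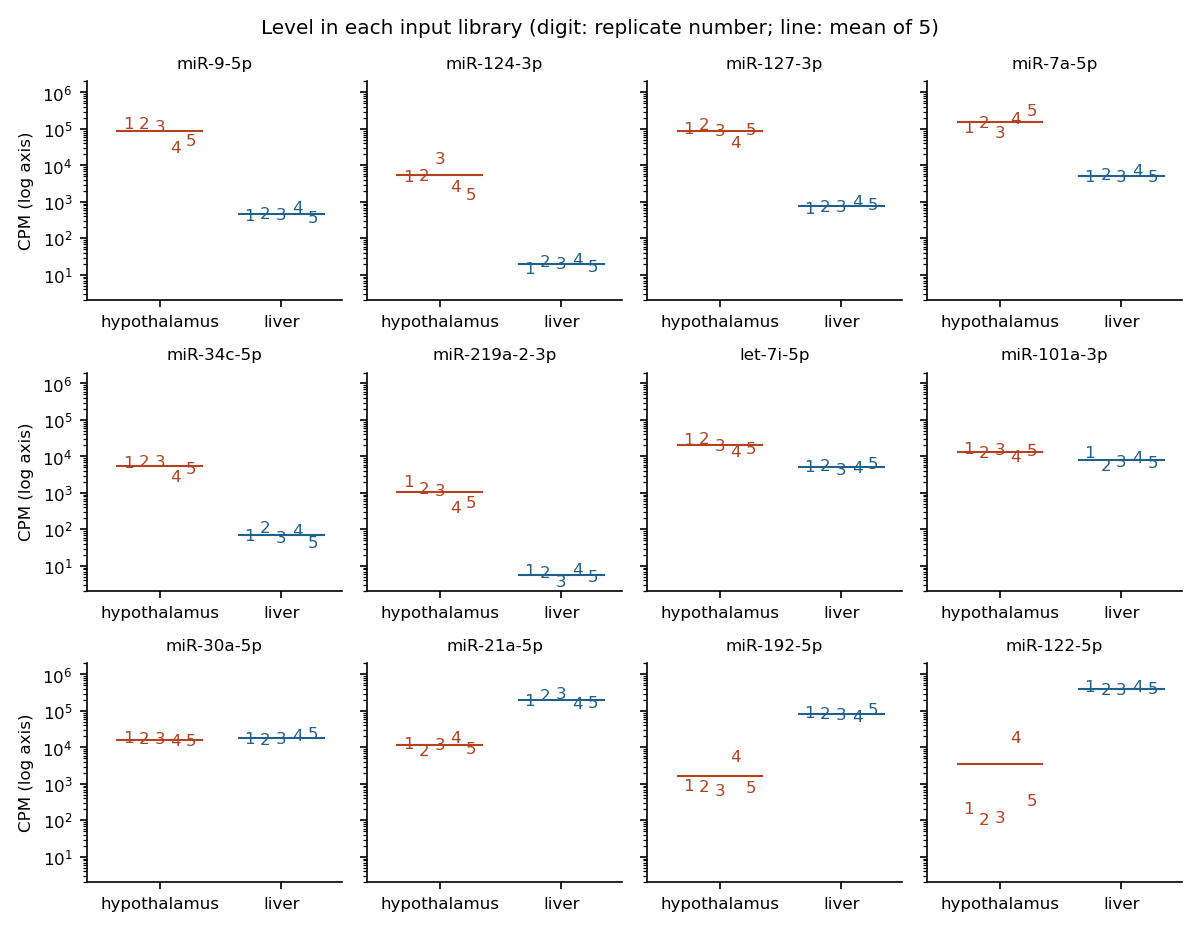
Levels of named miRNAs in each of the 5 hypothalamus inputs and 5 liver inputs, in CPM on a log axis, where each digit is 1 library, named by its replicate number, and lines mark means. miR-9-5p and miR-124-3p lie higher in every hypothalamus input than in any liver input, and miR-122-5p and miR-192-5p lie lower in every hypothalamus input, with input 4 highest of the hypothalamus group for both.

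Hepatocyte miRNAs were lower in the hypothalamus without exception among those tested. Of 13 listed entries, 8 passed the filter, and all 8 were lower on both scales, with a median log2 fold change of -6.93 beside 0.65 over all entries. Some of these, such as miR-122-3p and miR-194-2-3p, were so scarce in the hypothalamus that they could pass the filter almost only through the liver. The direction of such entries is no separate result. The list summed to 15170, 16040, 13550, 58110 and 48580 CPM in the hypothalamus inputs and to 528500 to 599300 CPM in the liver inputs. miR-122-5p, which supports lipid metabolism in hepatocytes, had 200.7, 102.6, 112.7, 17080 and 323.1 CPM in the hypothalamus inputs, against 432100, 374800, 371800, 432500 and 382500 CPM in the liver inputs. The groups did not overlap, and the log2 difference was -8.41 (SE 2.08, adjusted p = 0.00393). Without hypothalamus input 4 it was -12.83. The other arm, miR-122-3p, had no count in hypothalamus inputs 1, 2 and 3, 19.6 CPM in input 4 and 0.2697 CPM in input 5, against 153 to 383 CPM in the liver inputs.

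The clustered miR-192 and miR-194, both targets of p53 and known from liver, gut and kidney, were lower too. miR-192-5p had 865.1, 822.1, 635.1, 5249 and 741.2 CPM in the hypothalamus inputs and 83660, 79530, 75840, 67760 and 104500 CPM in the liver inputs. Input 4 was again the highest of its group but far below the liver, and the log2 fold change was -7.41 (SE 0.94, adjusted p = 1.71e-05; -8.66 without input 4). miR-194-5p had 239.4, 234.9, 407.4, 565.2 and 179.9 CPM in the hypothalamus, against 6407, 7761, 5388, 11390 and 5478 CPM in the liver (-6.46, SE 0.47). miR-148a-3p, which restrains lipid genes such as the LDL receptor in liver, had 13830, 14840, 12360, 35140 and 47280 CPM in the hypothalamus and 73200, 67960, 75050, 66860 and 106200 CPM in the liver. It was thus a major miRNA in both tissues and came closest to overlap in hypothalamus inputs 4 and 5 (log2 fold change -3.53, SE 0.55, adjusted p = 4.62e-05).

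Abundant liver miRNAs outside that list were lower as well. miR-21a-5p, a widely expressed miRNA that responds to injury and growth, had 11750, 7814, 11200, 17440 and 8978 CPM in the hypothalamus inputs, against 176200, 253500, 285300, 146800 and 155800 CPM in the liver inputs. The groups were far apart, and the log2 fold change was -6.18 (SE 0.53, adjusted p = 2.32e-07). miR-101b-3p, of the family that targets Ezh2, had 5696, 4562, 5339, 4420 and 4501 CPM in the hypothalamus and 27310, 19790, 22150, 19710 and 24170 CPM in the liver (-4.28, SE 0.27, adjusted p = 2.35e-08). miR-10a-5p, encoded in the Hoxb cluster, had 207.6, 46.21, 63.89, 1744 and 65.21 CPM in the hypothalamus, against 3973, 3232, 3192, 4608 and 5960 CPM in the liver. Its log2 fold change was -4.99 (SE 1.33, adjusted p = 0.0065), and -7.39 without hypothalamus input 4.

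Epithelial miRNAs split by library. Of 20 listed entries, 8 passed the filter and 2 were lower, miR-203-3p and miR-203-5p, with none higher; with hypothalamus inputs 1 to 3 alone all 8 were lower. The list summed to 746.4, 311.5, 586.6, 8008 and 15340 CPM in the hypothalamus inputs and to 1446 to 2266 CPM in the liver inputs. miR-203-3p, a miRNA of skin and other epithelia, had 283.1, 157.8, 247.4, 413.8 and 221 CPM in the hypothalamus, against 1007, 860.4, 782.4, 1012 and 1133 CPM in the liver (-3.84). miR-31-5p, also known from epithelia, had 25.69, 35.22, 58.71, 16.34 and 16.89 CPM in the hypothalamus and 188.1, 140.7, 110.5, 447.3 and 77.35 CPM in the liver (-4.76). Neither overlapped between the groups.

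Vascular and stromal miRNAs were lower on the TMM scale, and fewer of them were lower by share. All 4 tested endothelial entries were lower by TMM, with a median of -2.32, and none was called in either direction by total count. These entries are 2 pairs of opposite-strand partners that share their reads, and so amount to 2 measurements. miR-126a-3p, which sustains vascular integrity, had 4903, 3993, 6112, 4858 and 2196 CPM in the hypothalamus inputs, against 4387, 4754, 3871, 6119 and 4586 CPM in the liver inputs. The groups overlapped, and the log2 fold change was -2.16 by TMM (SE 0.24, adjusted p = 2.69e-06) and -0.11 by total count (adjusted p = 0.732). All 8 tested mesenchymal entries, of 11 listed, were lower by TMM, while by total count 4 were lower and 1 was higher. The 1 that turned was miR-143-3p, a smooth muscle miRNA, with 34680, 14720, 19130, 16560 and 6270 CPM in the hypothalamus and 9011, 8418, 7327, 10170 and 13360 CPM in the liver (-1.15 by TMM and 0.92 by total count, adjusted p = 0.0312 for the second). miR-199a-3p, known from fibroblasts and hepatic stellate cells, had 185, 58.86, 155.7, 733.6 and 143.6 CPM in the hypothalamus, against 574.2, 1269, 348.6, 1146 and 657.4 CPM in the liver (-3.46, adjusted p = 0.00274), and only input 4 overlapped the liver range.

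Blood cell miRNAs were scarce in both tissues. Of 13 leukocyte entries, 6 passed the filter. Among these, 4 were lower and 1 was higher, beside 34.3% lower and 46.7% higher over all entries. The list summed to 742.5 to 1246 CPM in the hypothalamus and to 665.4 to 1551 CPM in the liver. miR-146a-5p, an NF-kB-induced brake on innate signalling, had 329.8, 229.8, 440.7, 370 and 296.6 CPM in the hypothalamus inputs and 707.7, 744.2, 445, 1164 and 1251 CPM in the liver inputs (-3.35 by TMM and -1.37 by total count). The higher one was miR-150-5p, a lymphocyte miRNA, with 117.3, 106.3, 159.1, 84.95 and 51.65 CPM in the hypothalamus, against 4.41, 5.752, 1.96, 19.3 and 25.75 CPM in the liver. Its log2 fold change was 1.22 (adjusted p = 0.0356), and leaving out liver input 1, 2 or 3, or hypothalamus input 1, 2 or 3, ended the call (adjusted p up to 0.106). Of 8 erythroid entries, 5 passed the filter and 1, miR-451a, was lower; the other 4 are miR-486 entries that share their reads. The myeloid miRNA miR-223-3p had 19 counts over all hypothalamus inputs and 72 over all liver inputs and did not pass.

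Striated muscle miRNAs depended on hypothalamus input 4. Of 18 listed entries, 5 passed the filter and 1, miR-499-5p, was higher; without input 4, 1 was higher and 4 were lower. The list summed to 3418, 2042, 2600, 248900 and 2738 CPM in the hypothalamus inputs and to 863.3 to 1558 CPM in the liver inputs. With all libraries the log2 value of miR-1a-3p was 3.88 (SE 1.70, adjusted p = 0.0599), against -0.68 (adjusted p = 0.0225) without input 4. Likewise miR-133a-3p had 3.76 with all libraries and -1.06 without it. For comparison, the level of miR-1a-3p was 598000 to 633700 CPM in the skeletal muscle inputs of the series and 63970 to 279900 CPM in its brown fat inputs. That of miR-133a-3p was 14710 to 34620 CPM in the skeletal muscle inputs and 4005 to 20510 CPM in the brown fat inputs. The heart miRNAs miR-208a-3p and miR-208b-3p had no count in any of the 10 inputs. Whether RNA of muscle, brown fat or another tissue took part in the values of input 4 was not tested.

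**Figure D4:**
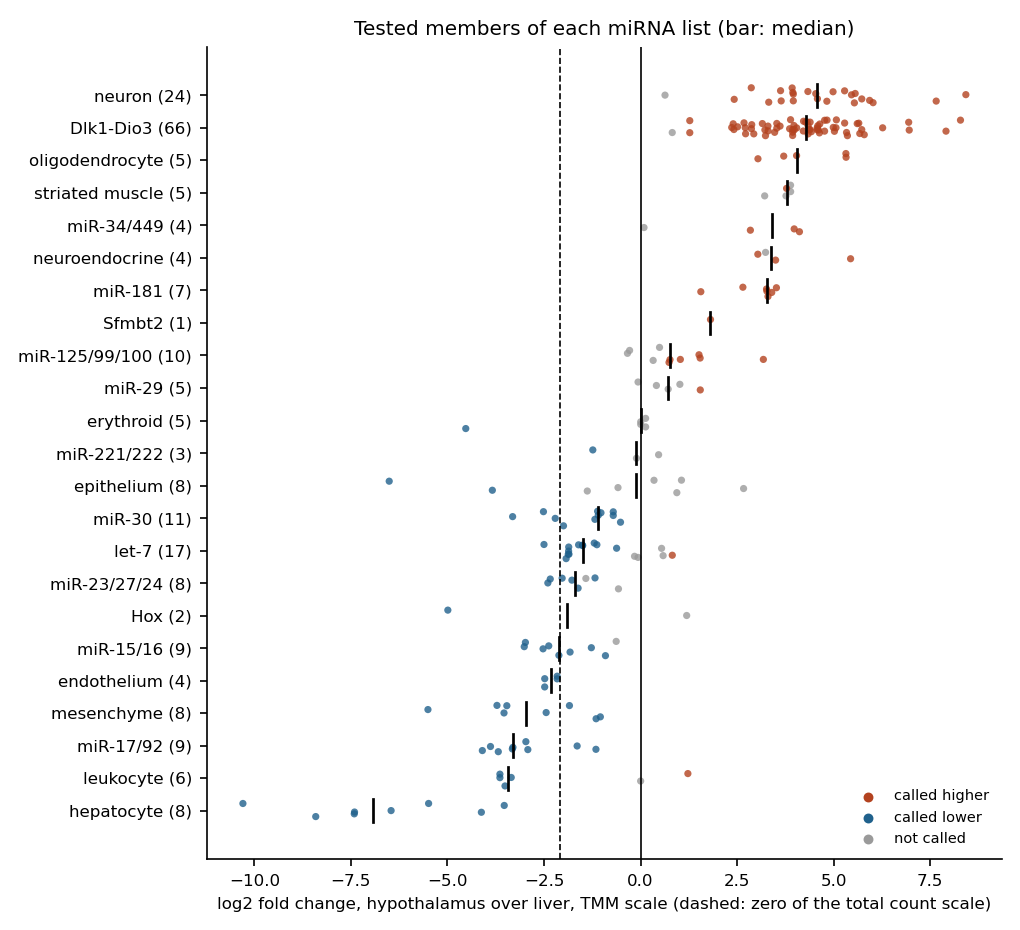
Log2 fold changes of hypothalamus over liver for the tested members of the miRNA lists, on the TMM scale. Each point is 1 entry, coloured by its call, short lines mark list medians, and the dashed line marks the zero of the total count scale: the neuronal list lies at 4.56 and the Dlk1-Dio3 list at 4.29, whereas the hepatocyte list lies at -6.93.

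For several broadly expressed families the scale decided the direction. Of 17 tested entries of let-7, the family that holds back growth genes such as Lin28 and Hmga2, 12 were lower and 1, let-7e-5p, was higher by TMM, while 9 were higher and none lower by total count. let-7g-5p had 35270, 29700, 24090, 18370 and 20460 CPM in the hypothalamus inputs, against 19500, 15690, 14260, 17740 and 18500 CPM in the liver inputs. Its log2 fold change was -1.50 by TMM and 0.58 by total count (adjusted p = 0.049 for the second). let-7i-5p had 27860, 28860, 18440, 12800 and 15620 CPM in the hypothalamus and 5041, 5349, 4241, 4754 and 6086 CPM in the liver, with no overlap, and was not called by TMM (-0.07, adjusted p = 0.798) but was higher by total count (2.02).

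The miR-30 family, found in most epithelia and neurons, was lower by TMM in all 11 tested entries, whereas by total count 7 were higher and 1 was lower. miR-30a-5p had 18050, 16160, 17040, 14780 and 14580 CPM in the hypothalamus inputs, against 16790, 15240, 16200, 19710 and 23130 CPM in the liver inputs. Its groups overlapped, and its log2 fold change was -2.21 by TMM (adjusted p = 8.09e-07) and -0.18 by total count (adjusted p = 0.497). For the miR-15 and miR-16 family, which restrains cyclins, 8 of 9 entries were lower by TMM and by total count 3 were higher and 1 lower. Of the miR-23, miR-27 and miR-24 group, 6 of 8 were lower by TMM and 2 were higher by total count.

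The miR-17 to miR-92 family, products of proliferation-linked clusters, was lower on both scales: all 9 tested entries by TMM, and 7 of them by total count with 1 higher. miR-92a-3p had 362.2, 240.9, 245, 330 and 157 CPM in the hypothalamus inputs and 1061, 816.4, 778.2, 1686 and 1369 CPM in the liver inputs, with no overlap (-4.10). miR-20a-5p changed by -3.68 and miR-25-3p by -2.92 (-0.86 by total count). Of the remaining lists, miR-29 had 1 higher of 5 tested, the miR-221 and miR-222 pair 1 lower of 3, the Hox-encoded miRNAs 1 lower of 2, and of 79 miRNAs of the Sfmbt2 cluster 1 was tested and was higher.

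Relatives that share a seed went in opposite directions in a minority of families. Seed families were formed from the tested entries that matched RefSeq, so some members are missing. Of 36 such families with at least 2 entries, 8 were higher in all entries, 10 were lower in all, and 6 held calls in both directions by TMM. Over all entries tested, 46.7% were higher and 34.3% lower. A share within a pair of relatives does not depend on the scaling, and 26 pairs were compared by their share of the pair's summed counts in each library. The pairs were chosen after the values had been seen, so the shares are given as a description, with no test. In 19 of the 26 pairs the libraries of the groups did not overlap.

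In the family with the seed AUUGCAC, the balance between miR-92b-3p and miR-92a-3p differed between the tissues. miR-92b-3p, known from neural progenitors, had 1048, 715.8, 844.6, 408.4 and 434 CPM in the hypothalamus inputs, against 9.555, 9.292, 9.479, 13.32 and 13.62 CPM in the liver inputs (log2 fold change 3.84, SE 0.26, adjusted p = 2.9e-08). It made up 71.1% ± 8.95 of the sum with miR-92a-3p in the hypothalamus and 1.00% ± 0.17 in the liver (SD, n = 5 each). The mature miR-92b-3p and miR-92a-3p printed above share their first 8 bases and differ in the 3′ part. miR-25-3p, with the same seed, was a large member in both tissues. It made up 61.2% of its sum with miR-92a-3p in the hypothalamus and 40.7% in the liver. Over the 4 tested members with this seed, levels summed to 1389 ± 408.5 CPM in the hypothalamus and 1928 ± 488.3 CPM in the liver.

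A like exchange was seen for miR-708 and miR-28a, which share the seed AGGAGCU. miR-708-5p had 197.3, 182.7, 463.7, 237.7 and 150.8 CPM in the hypothalamus inputs and 2.94, 1.77, 1.47, 3.137 and 1.184 CPM in the liver inputs (log2 fold change 4.69, SE 0.40, adjusted p = 2.07e-07). miR-28a-5p had 94.27, 76.66, 150.8, 111.1 and 87.32 CPM in the hypothalamus, against 156.3, 221.4, 139.8, 259 and 179.8 CPM in the liver (-2.94 by TMM and -0.88 by total count). miR-708-5p was 69.0% ± 4.43 of the pair in the hypothalamus and 1.11% ± 0.46 in the liver (SD, n = 5 each). For miR-301a and miR-130a, with the seed AGUGCAA, miR-301a-3p was 48.4% ± 10.6 of the pair in the hypothalamus and 1.83% ± 0.87 in the liver. miR-301a-3p was higher (3.39, adjusted p = 0.00174) and miR-130a-3p lower by TMM (-2.60) but not called by total count.

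In the miR-30 family, with the seed GUAAACA, miR-384-5p was 5.85% of its sum with miR-30a-5p in the hypothalamus and 0.02% in the liver. miR-30e-5p made up 23.4% of its pair with miR-30a-5p in the hypothalamus and 8.65% in the liver, and miR-30c-5p 37.3% in the hypothalamus and 22.7% in the liver. Summed over these 4 entries, levels were 32000 ± 5482 CPM in the hypothalamus and 25310 ± 4498 CPM in the liver. This is a part of the miR-30 family only, since the sum leaves out the tested entries miR-30b-5p and miR-30d-5p. The let-7 seed family likewise summed to 88860 ± 18640 CPM in the hypothalamus and 53010 ± 7632 CPM in the liver. Within it, let-7i-5p was 78.7% of its pair with let-7a-5p in the hypothalamus and 51.7% in the liver, and let-7e-5p 4.86% of its pair with let-7f-5p in the hypothalamus and 0.76% in the liver.

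Other pairs shifted without a full exchange. miR-101a-3p was 72.4% ± 2.51 of its sum with miR-101b-3p in the hypothalamus and 25.5% ± 5.14 in the liver (SD, n = 5 each). In the RefSeq annotation miR-101b-3p starts 1 base earlier than miR-101a-3p, so the annotated seeds of this pair differ. miR-146b-5p was 58.0% of its pair with miR-146a-5p in the hypothalamus and 12.7% in the liver, and miR-34b-5p 76.2% of its pair with miR-34a-5p in the hypothalamus and 17.8% in the liver. miR-10b-5p was 40.6% ± 8.82 of its sum with miR-10a-5p in the hypothalamus and 1.35% ± 0.64 in the liver (SD, n = 5 each), and hypothalamus input 4 had the highest level of both. Smaller shifts ran the other way for miR-26b-5p, 8.64% of its pair with miR-26a-5p in the hypothalamus and 25.9% in the liver, and for miR-99a-5p, 57.5% and 73.1% of its pair with miR-100-5p in hypothalamus and liver. miR-152-3p was 8.36% of its pair with miR-148a-3p in the hypothalamus and 2.44% in the liver. The shares of let-7g-5p with let-7f-5p, miR-103-3p with miR-107-3p and miR-23b-3p with miR-23a-3p overlapped between the tissues.

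**Figure D5:**
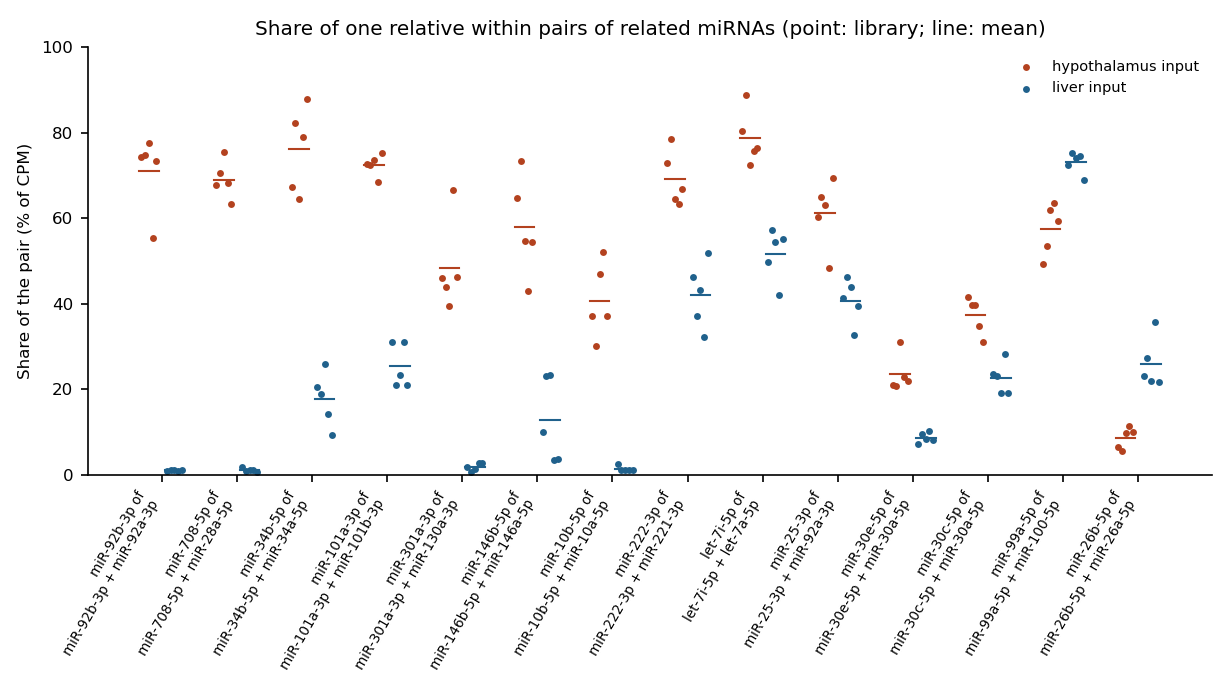
Share of the first-named miRNA in the summed counts of each pair of relatives, in percent, for each of the 5 hypothalamus inputs and 5 liver inputs. Each point is 1 library and lines mark means. miR-92b-3p averages 71.1% of its pair in the hypothalamus and 1.00% in the liver.

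Hairpins that lie together held no opposing calls on the TMM scale. With hairpins on the same strand joined where they lay within 10000 bases, 35 clusters had at least 2 tested entries, and none held calls in both directions by TMM. All entries were higher in 10 clusters and lower in 13, where 46.7% of all tested entries were higher and 34.3% lower. The other clusters were called in part or, like that of Mir182, Mir96 and Mir183, not at all. A miRNA with hairpins in different clusters, such as miR-194-5p, counts in each of them, and some entries share reads. Part of the agreement is therefore built in. The long Dlk1-Dio3 cluster at chr12:109709060-109747960 had 36 of 37 tested entries higher, with a median log2 fold change of 3.88, and the upstream stretch that holds Mir770 and Mir127 (chr12:109563692-109595388) had 18 of 18 higher, with a median of 4.70. In the Mir17hg cluster, at chr14:115043671-115044506, all 5 tested entries were lower (median -3.68). The cluster of Mir212 and Mir132, miRNAs induced by neuronal activity, had 4 of 4 entries higher (3.09), and that of Mir192 and Mir194-2 had 3 of 3 lower (-7.41).

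The balance between the arms of a hairpin was compared separately. Among 97 hairpins with both arms tested, the exact permutation test on the log2 ratio of 5p to 3p counts called 0 (0.0%) after adjustment, with 29 at an unadjusted p under 0.05 and a smallest adjusted p of 0.055. limma on the same ratios called 23. With 5 libraries per group, the permutation test cannot give an unadjusted p below 0.00794. An adjusted p under 0.05 therefore needs many hairpins at that value. Hairpins that reached it, such as miR-376b, miR-145a and miR-485, had an adjusted p of 0.055 by this test. The count of 0 does not show that the arm balance was alike in both tissues. By the mean log2 ratio, the more abundant arm was the same in both tissues for 88 hairpins and differed for 9. Among those 9 were hairpins close to absent from the liver, such as miR-873a and miR-667, whose arms averaged 0.7815 and 0.3982 CPM there in sum. The rounded arm counts of miR-873a tied in every liver input, and the tie was counted as 3p. For miR-9 the 5p arm made up 94.1% ± 1.63 in the hypothalamus and 94.7% ± 0.77 in the liver (SD, n = 5 each). Among examples chosen after their values were seen were miR-376b, with a 5p share of 74.2% ± 8.73 in the hypothalamus and 28.6% ± 10.7 in the liver, miR-485, with 54.6% ± 3.74 in the hypothalamus and 30.4% ± 9.93 in the liver, and miR-145a, with 52.3% ± 1.16 in the hypothalamus and 28.6% ± 4.80 in the liver. miR-540 ran the other way, with 55.0% ± 17.7 in the hypothalamus and 86.8% ± 16.4 in the liver, where its arms summed to 3.514 CPM on average. The arms of miR-376b and miR-485 were scarce in the liver too, with mean sums of 9.854 and 15.13 CPM.

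The IP libraries of the same mice gave a second, shallower view of the tissue difference, with totals of 67819 to 229622 counts in the hypothalamus and 11928 to 444006 counts in the liver. Of 158 entries tested, 69 (43.7%) were higher in hypothalamus IP and 43 (27.2%) lower by TMM. Under total count scaling 110 were higher and 16 lower, and under scaling by the median of ratios (RLE) 88 were higher and 28 lower. Of 151 entries tested in both comparisons, 101 were called in both, 62 of them higher in both and 38 lower in both. The 1 exception was miR-501-3p, lower between inputs (-0.62) and higher between IPs (1.96) by TMM. By total count it was higher in both comparisons (adjusted p = 0.000943 between inputs and 3.56e-05 between IPs). Input and IP libraries come from the same animals, so the second comparison is not independent of the first. All inputs were in one sequencing pool and all IPs in the other, so the tissue comparison lies within a pool in both cases.

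Only 2 mice gave an input of both tissues. In the mouse of hypothalamus input 2 and liver input 2, 183 of the 184 higher entries and all 135 lower entries had the same direction as the group comparison on the TMM scale. In the mouse of hypothalamus input 5 and liver input 4, 181 higher and 134 lower entries did so. In both mice the direction was kept by 180 of the 184 higher and 134 of the 135 lower entries. The libraries of these mice are among those that gave the calls, and the 184 higher entries did not overlap in CPM. Most of this agreement was therefore built in and is no separate result.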

How the data were processed

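Small RNA was extracted with Trizol and chloroform and made into libraries with the NEBNext small RNA kit, per the labels' protocols. The authors' deposited values are expected counts per miRNA entry (not all whole; 18.9% of the values above 0 lay within 0.001 of a whole number), which were rounded before testing, changing a library's total by at most 0.13%. fastp, STAR, featureCounts and the build mm10 are named per the submitters' processing notes; versions, strandedness and how multiply matching reads were counted are not given in the sources used. Of the 24 pairs of entries with nearly identical counts, such as copies of a miRNA or opposite strands, the members share reads, are uncertain and are counted separately in the list counts.

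Tests used edgeR 4.0.16 (quasi-likelihood, TMM scaling, default filter on low counts, 394 of 1894 entries kept) on the 10 inputs without a block, limma 3.58.1, DESeq2 1.42.0 and R 4.3.3, with Benjamini-Hochberg adjustment over all entries tested. Arm ratios used exact permutation tests (SciPy 1.17.1, pseudocount 0.5). Of the tested entries, 343 matched RefSeq. The named miRNAs were the 12 with the largest change in each direction with at least 100 CPM, the 8 most abundant per tissue, up to 4 per list, the 5 abundant uncalled ones nearest to no change, and those whose call turned without hypothalamus input 4; arms and scarce entries were chosen after their values were seen. The members, the 23 lists and the rule were chosen with earlier results of these data known. By the mouse labels, equal replicate numbers in hypothalamus and liver meant the same mouse for replicate 2 only. In data simulated on these libraries, 377 entries were tested. Of 86 entries changed by 1 on the log2 scale, 43.0% were recovered, and of 104 changed by 2, 97.1%. In those data 3.5% of the calls were false. The share of false calls in the tissue comparison itself, where the scale can decide the direction, was not tested. Depths are given with the results. The alternatives were other scalings (RLE, total count), filters, tests and blocks, all 20 inputs in the fit, shared entries counted once, and libraries left out.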

Additional observations from a re-analysis of the deposited data

Results flagged for a closer look

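In 18 of 124 groups of 5 libraries (62 miRNAs in 2 tissues), 1 library lay far from the other 4 by Dixon's test. The miRNAs were chosen from these data, some of them, such as miR-1a-3p, because their call turned without hypothalamus input 4. The flags are therefore a description and cannot be set against a chance rate. Hypothalamus input 4 accounted for 8 of the 18 flagged groups. In it, miR-1a-3p had 179000 CPM against 2475 CPM in the nearest other hypothalamus input, miR-133a-3p 8646 against 97.17, miR-122-5p 17080 against 323.1, miR-122-3p 19.6 against 0.2697, miR-192-5p 5249 against 865.1, miR-10a-5p 1744 against 207.6, miR-10b-5p 1900 against 121.8, and miR-199a-3p 733.6 against 185 CPM. Hypothalamus input 3 was the highest library for the brain-enriched miR-124-3p (14380 CPM, nearest other 5068), miR-380-3p (1345, nearest 429.5), miR-338-3p (878.3, nearest 234.2), miR-708-5p (463.7, nearest 237.7) and miR-301a-3p (86.61, nearest 29.14), and for miR-130a-3p (133.3, nearest 37.39). Liver input 4, the shallowest liver input, was highest for miR-9-3p (45.65 CPM, nearest 23.74), miR-128-3p (588.5, nearest 421.9) and miR-301a-3p (3.7, nearest 1.184). Liver input 5 was highest for miR-148a-3p (106200 CPM, nearest 75050). The causes were not tested.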

How the results depend on the processing

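Total count scaling moved the number of higher and lower entries between inputs to 280 and 48, and no filter moved the higher entries to 298. Between IPs, 110 were higher under total count, 135 with no filter and 140 with a 10 CPM minimum, and 28 were lower under RLE, 16 under total count and 66 with no filter. For the arm ratios, 27 hairpins were called with a pseudocount of 5, 23 by limma and 14 by limma with a replicate block. The replicate block gave 180 higher and 136 lower inputs, mouse as a random block 181 and 137, and the IP block 69 and 45; same-numbered libraries correlated at -0.107 to 0.033, so the numbers do not pair them. DESeq2 gave 190 and 133, and shared entries counted once 188 and 111.

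Leaving out 1 library gave 181 to 199 higher and 130 to 138 lower inputs, and 68 to 103 higher and 29 to 62 lower IPs. Of 1218 values for named miRNAs, 1160 kept direction and call, 11 lost the call, 16 gained it and 31 turned. Under total count miR-143-3p was 0.92, miR-101a-3p 0.72, let-7g-5p 0.58, let-7f-5p 0.16, miR-30d-5p 1.04 and let-7i-5p 2.02. let-7i-5p was also 0.078 under RLE and DESeq2, 0.35 with no filter, 0.22 with shared entries once, 0.27 with hypothalamus inputs 1 to 3 (chosen after seeing the data), 0.34 with all 20 inputs, and -0.16 to 0.20 with 1 library left out. With the replicate block miR-1a-3p was -0.17, miR-133a-3p -0.58, miR-375-3p -0.26 and miR-10b-5p -1.63. limma-voom gave miR-133a-3p -0.65 and miR-10b-5p -1.75, and with mouse as a random block -0.57 and -1.65. With 1 library left out miR-1a-3p was -0.68 to 4.21, miR-133a-3p -1.06 to 4.09 and miR-10b-5p -1.91 to 1.60, lowest without hypothalamus input 4 in each case. With hypothalamus inputs 1 to 3 miR-1a-3p was -0.83, miR-133a-3p -1.48, miR-375-3p -1.996 and miR-10b-5p -1.86. The causes were not tested.

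The total counts limit scarce entries most in hypothalamus input 4 and liver IP 4.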
